A study of Mus musculus with 4 samples.

Results

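Histone genes were followed across bone marrow-derived macrophages that had been cultured with or without butyrate, a short-chain fatty acid made by gut bacteria. The members were all listed genes whose symbol is that of a linker histone (H1f), of a clustered core histone (H2ac, H2bc, H3c or H4c), of an H2A or H3 variant (H2ax, H2az, H3f3) or of macroH2A. This rule used names only and found 74 of the 16375 genes in the table. Of these, 65 belong to the replication-dependent class (H1f1 to H1f6 and the numbered core histone genes) and 9 to the replacement class (H1f0, H1f10, H2ax, H2az1, H2az2, H3f3a, H3f3b, Macroh2a1 and Macroh2a2).

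The cells were grown from mouse bone marrow with macrophage colony-stimulating factor. Wild-type (WT) mice and mice lacking the long noncoding RNA lncLy6c (LNCKO) each gave a control culture and a culture that received 500 µM butyrate for 24 h. Each of the 4 groups held 1 RNA library, so no difference below has a replicate check and no p-value is given. The labels state neither age, sex nor number of donor animals, nor how the deletion was made, and no gene named lncLy6c was listed, so the deletion could not be checked in these values. Each run of 4 values below gives the WT culture without and with butyrate, then the LNCKO culture without and with butyrate.

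Histones are the proteins around which DNA is wound in the nucleosome, with a pair each of H2A, H2B, H3 and H4 in its core and a linker histone, H1, on the outside. Replication-dependent genes are transcribed in S phase, lie in clusters, mostly lack introns, and give mRNAs that end in a stem-loop bound by SLBP in place of a poly(A) tail. Replacement genes are read throughout the cell cycle and in resting cells and mostly give polyadenylated mRNAs. Butyrate inhibits histone deacetylases, and H1f0, the linker histone of cells that stop dividing, is a gene long known to respond to it in cultured cells.

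The clearest feature of these macrophages was the balance between the classes. The 9 replacement genes held between 94.4% and 95.1% of all histone fragments in each library, a share not adjusted for gene length, and the 65 replication-dependent genes the rest. Fragments were recovered from the deposited FPKM values (fragments per kilobase per 1000000 fragments of the library), and pools are given as fragments per 1000000 (FPM). Replication-dependent genes together gave 137 FPM in WT control (95% counting interval 134 to 140), 151 in WT butyrate (148 to 154), 146 in LNCKO control (143 to 149) and 167 in LNCKO butyrate (163 to 170). These exact Poisson intervals cover counting error only, not the spread between cultures. Whether the RNA was selected for poly(A) tails is not settled by the sources used here, so a low level of a gene of this class cannot be told apart from poor capture of its mRNA.

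The stem-loop that marks the class was looked for in the mouse annotation (GENCODE M21, build GRCm38). The pattern searched was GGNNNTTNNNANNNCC with a fully paired stem of 6 bases and C or T as the second base of the loop. It was found in 92 of 21901 genes with protein-coding transcripts (0.42%) and in 46 of the 74 members, of which 45 were replication-dependent and 1, H2ax, a replacement gene. All 46 lay outside the coding sequence. They are shown for the members with the most fragments and for those whose levels differed most between libraries. Capitals mark the paired stem, and lower case marks the loop and 5 flanking bases on each side, written as DNA in the direction of the transcript.
H2ax (chr9:44335240-44335255, plus strand): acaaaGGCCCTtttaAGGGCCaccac
H1f2 (chr13:23739512-23739527, plus strand): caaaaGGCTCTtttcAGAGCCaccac
H2ac25 (chr11:58955172-58955187, plus strand): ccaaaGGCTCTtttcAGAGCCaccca
H4c9 (chr13:22040966-22040981, minus strand): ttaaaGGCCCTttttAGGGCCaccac
H3c14 (chr3:96247327-96247342, plus strand): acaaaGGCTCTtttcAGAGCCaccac
H2ac18 (chr3:96246032-96246047, plus strand): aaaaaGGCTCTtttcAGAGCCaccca
Coordinates are those of the stem and loop. The stem GGCCCT of H4c9 and H2ax differed from the GGCTCT of the other 4, and 10 of the 12 H4 genes with a match began with GGCCC.

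Mature mRNAs of this class are cut a few bases after the stem-loop, but several annotated models run on. In 23 of the 45 replication-dependent genes with a match the transcript continued for at least 100 bases, by 840 bases in H1f2, 1643 in H2ac25, 330 in H4c9 and 155 in H2bc8. These 23 genes held 73.0% of the fragments of the class, the 22 with shorter tails 4.52%, and the 20 without a match 22.5%. The excess rested on a few genes, since the median level per exon length was 0.359 fragments per kilobase of exons per 1000000 (exon FPKM) with a long tail, 0.483 with a short tail and 0.43 without a match. The letters AATAAA, the usual polyadenylation signal, stood in the last 50 bases of 10 of the 23 long models, H1f2 and H2ac25 among them, and of 0 of the 22 short ones. Of the 20 genes without a match, 15 had fewer than 40 annotated bases after the stop codon, where a stem-loop could be missed. H2bc4 and H2bc21 had no match either, with 742 and 2192 annotated bases after the stop codon. They held 4124 and 2418 of the 7957 fragments of the genes without a match.

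**Figure D1:**
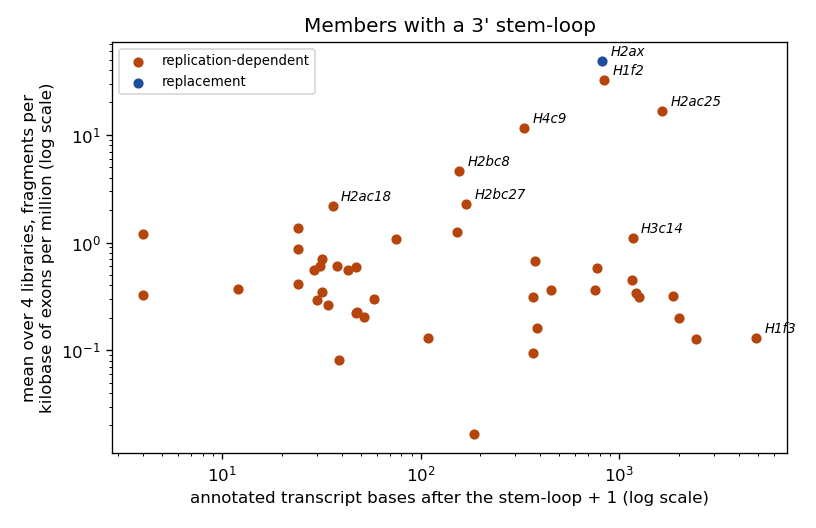
Mean level over the 4 libraries (exon FPKM, log scale) against the number of annotated transcript bases after the stem-loop plus 1 (log scale), for the 46 members with a match. H2ax, H1f2, H2ac25, H4c9 and H2bc8 lie highest and have from 155 to 1643 bases after the loop, while H1f3, with 4884, lies low.

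Depth and sequence set how much each gene can show. The libraries held from 53363944 to 65521713 fragments. Even so, 52 of the 65 replication-dependent genes had under 100 fragments in every library, 25 had under 20, and 11 had 0 in at least 1 library. A count of 0 allows up to 3 fragments, which is 0.0458 to 0.0562 FPM in these libraries. Only 14 replication-dependent and 7 replacement genes reached a mean FPKM of 1, the level above which changes were compared. Windows of 100 bases, the stated read length, were also compared with all annotated transcripts, and 59 of the 65 replication-dependent genes shared at least 1 such window with another gene and 27 shared over 50% of them. Of the 9 replacement genes 8 shared a window, with 49.0% of windows in H2az1, 23.1% in H3f3a, 10.2% in H1f10 and at most 6.55% in the others. The split of reads between copies is therefore uncertain, for H2az1 and H3f3a too. H2bc23 and H2bc24 show it: their windows were shared at 100% and 99.8%, and they gave 86, 67, 79 and 113 fragments against 91, 70, 83 and 121. Of the 6 replication-dependent genes with the most fragments, H2bc21 shared no window, H1f2 5.07%, H4c9 15.1%, H2bc4 25.4%, H2ac25 29.8% and H2bc8 44.9%.

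**Figure D2:**
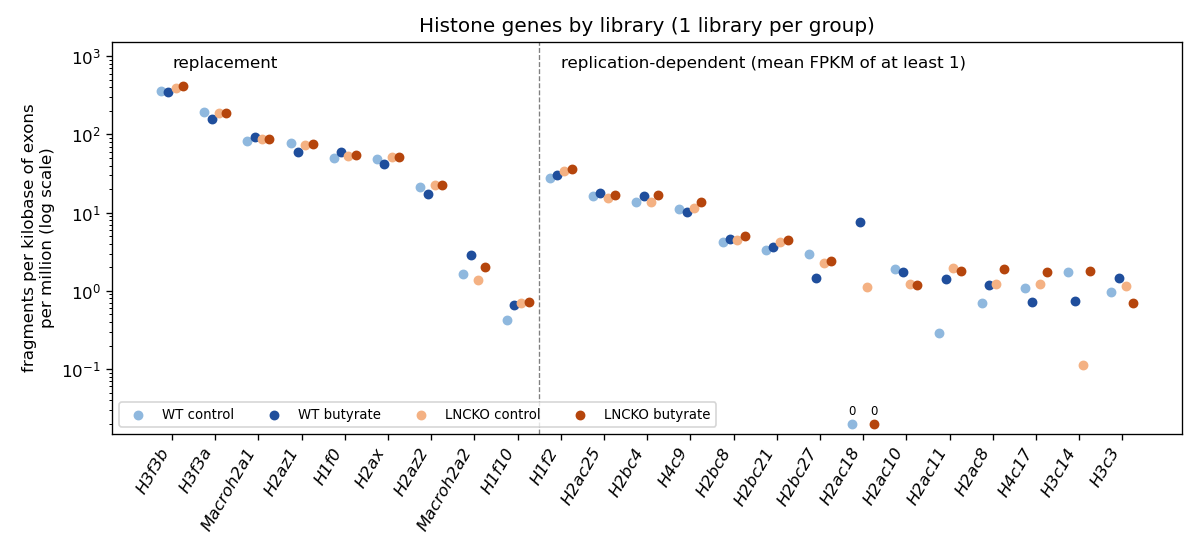
Level of each replacement member and of the replication-dependent members whose mean FPKM reached 1 in each library (exon FPKM, log scale, 1 point per library; points marked 0 have no fragment). The 4 points of the abundant genes lie close together, while those of H2ac18, H3c14 and H2ac11 spread widely.

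Among the linker histones, H1f0 (chromosome 15, 79028450 to 79030504, plus strand, 1 exon block) was the main replacement member and had a level of 50.2, 59.0, 52.5 and 55.0 exon FPKM. Its highest value was that of WT butyrate, and both butyrate libraries lay above both controls. The ratio of butyrate to control was 1.18 in WT (95% counting interval 1.14 to 1.22) and 1.05 in LNCKO (1.01 to 1.09). On the log2 scale of FPKM + 1, on which all log2 differences below are given, the change was 0.23 in WT and 0.07 in LNCKO. The WT change exceeded the LNCKO change by 0.16, a difference that cannot be tested with 1 library per group. Over all 6809 genes whose mean FPKM reached 1, the butyrate change had a median of -0.04 and an SD of 0.19 in WT and a median of -0.01 and an SD of 0.12 in LNCKO, so the change of H1f0 was of the size of the spread over genes. The other replacement linker histone, H1f10, gave 29, 48, 45 and 57 fragments, lowest in WT control.

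The H2A.Z, H2A.X and H3.3 genes shared a low value in WT butyrate. H2az1, which encodes the variant found at promoters, stood at 77.1, 58.9, 72.8 and 74.5 exon FPKM, with a butyrate ratio of 0.763 in WT (0.738 to 0.789) and 1.02 in LNCKO (0.992 to 1.06). Its WT butyrate library lay below the other three. H2az2, which encodes a close relative, had 21.4, 17.3, 22.5 and 22.3 exon FPKM and ratios of 0.806 (0.754 to 0.86) and 0.991 (0.933 to 1.05). H2ax, whose protein is phosphorylated at DNA breaks, had 49.0, 42.0, 51.0 and 52.1 exon FPKM and ratios of 0.857 (0.818 to 0.898) and 1.02 (0.977 to 1.07).

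H3f3a and H3f3b encode the same protein, H3.3, which is placed into active genes outside replication. H3f3a had 192, 157, 188 and 189 exon FPKM, again lowest in WT butyrate, with a ratio of 0.817 in WT (0.805 to 0.829) and 1.01 in LNCKO (0.993 to 1.02). H3f3b, the histone gene with the highest level, had 354, 344, 387 and 419 exon FPKM, and its ratios were 0.973 in WT (0.962 to 0.984) and 1.08 in LNCKO (1.07 to 1.09). Its values were ordered by genotype, with both LNCKO libraries above both WT libraries.

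The macroH2A genes, whose proteins carry a large extra domain and mark silent chromatin, were higher with butyrate. Macroh2a1 had 82.5, 93.7, 86.3 and 88.4 exon FPKM and ratios of 1.14 in WT (1.12 to 1.15) and 1.02 in LNCKO (1.01 to 1.04). Macroh2a2 was far less abundant, at 199, 375, 158 and 284 fragments, with ratios of 1.8 in WT (1.51 to 2.14) and 1.46 in LNCKO (1.2 to 1.79). Both butyrate libraries thus exceeded both controls for Macroh2a2. Its mean FPKM was under 1, so it did not enter the counts of members past a fold.

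Over the 7 replacement genes that reached a mean FPKM of 1, the median butyrate change was -0.20 in WT, where 2 were higher and 5 lower, and 0.03 in LNCKO, where 6 were higher and 1 lower. Between the genotypes their median difference (LNCKO minus WT) was 0.06 without butyrate and 0.26 with butyrate, beside 0.01 and 0.04 over all genes. The comparisons share libraries, so the low WT butyrate values enter both the WT change and the difference with butyrate. As bulk RNA, these values do not tell fewer cells of a type from less RNA per cell.

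Of the replication-dependent genes, H1f2 was the most abundant, with 28.0, 30.7, 33.7 and 36.4 exon FPKM. It encodes a major linker histone. Its 4 values did not overlap between the genotypes, and within each genotype butyrate was the higher, with ratios of 1.1 in WT (1.04 to 1.16) and 1.08 in LNCKO (1.03 to 1.14). The LNCKO to WT ratio was 1.2 without butyrate (1.14 to 1.27) and 1.19 with it (1.13 to 1.25). H2ac25, an H2A gene outside the large clusters whose exons overlap Trim17 on the same strand by 708 bases, had 16.4, 17.8, 15.5 and 17.0 exon FPKM, with butyrate ratios of 1.08 (1.02 to 1.15) and 1.1 (1.03 to 1.17).

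The H2B genes H2bc4, H2bc21 and H2bc8 lay next. H2bc4 had 13.7, 16.1, 13.7 and 17.0 exon FPKM, with both butyrate libraries above both controls and ratios of 1.18 in WT (1.08 to 1.29) and 1.23 in LNCKO (1.13 to 1.35). H2bc21 had 3.37, 3.62, 4.21 and 4.49 exon FPKM, ordered as H1f2 was, and its LNCKO to WT ratio without butyrate was 1.25 (1.11 to 1.41). H2bc8 had 4.25, 4.54, 4.52 and 4.99 exon FPKM, and all 4 of its ratios had intervals that included 1. H4c9, the only H4 gene of this level, had 11.2, 10.1, 11.4 and 13.8 exon FPKM, with a butyrate ratio of 0.907 in WT (0.794 to 1.04) and 1.21 in LNCKO (1.07 to 1.36).

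Those 6 genes (H1f2, H2ac25, H2bc4, H2bc21, H4c9 and H2bc8) gave 6447, 7354, 6602 and 9025 fragments, most of the class. Over the 14 replication-dependent genes whose mean FPKM reached 1, the median butyrate change was 0.09 in WT, with 9 higher and 5 lower, and 0.11 in LNCKO, with 10 higher and 4 lower. The median LNCKO minus WT difference was 0.07 without butyrate and 0.22 with it. Over all 65 genes, low ones included, these 4 medians were 0.09, 0.08, 0.01 and 0.09. The WT butyrate medians of the classes were thus 0.09 against -0.20 for genes whose mean FPKM reached 1. Over all 9 replacement genes, with no filter on low values, the latter was -0.04, beside -0.0016 over all 16375 genes. In LNCKO both medians were positive. No test of the difference between the classes was made.

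**Figure D3:**
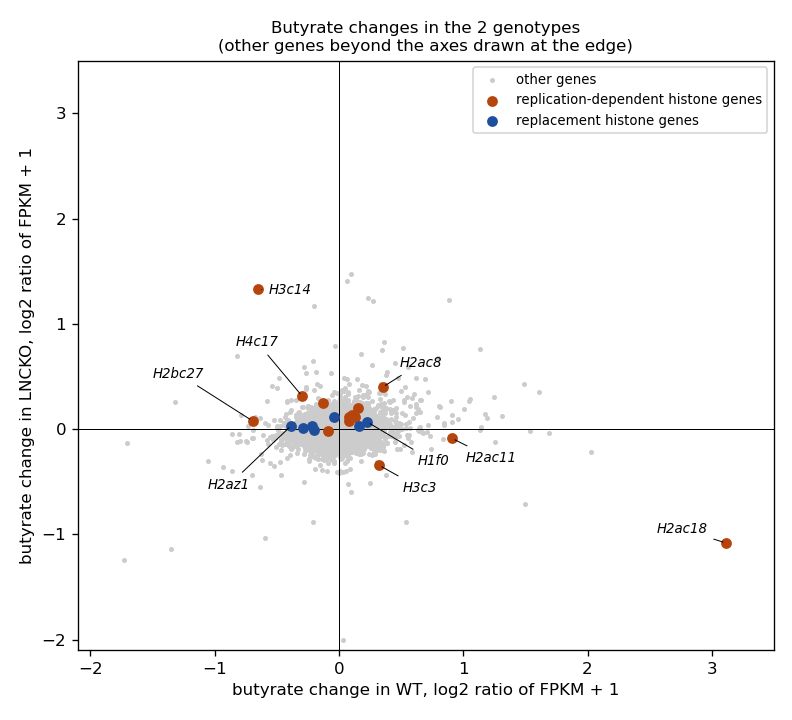
Butyrate change in WT (x axis) against that in LNCKO (y axis), each as log2 ratio of FPKM + 1, for the 21 histone genes and all other genes whose mean FPKM reached 1. H2ac18 and H3c14 lie far out in opposite quadrants, while most other histone genes lie within the cloud, the replacement genes spread along the x axis.

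Pooled by family, the H1 genes of the replication-dependent class gave 45.2, 50.2, 55.1 and 60.9 FPM, with non-overlapping counting intervals. Almost all of these were H1f2. The other 5 H1 genes, pooled, showed the same order at far lower level, at 1.53 (1.22 to 1.88), 2.35 (1.97 to 2.77), 2.55 (2.14 to 3.01) and 4.06 (3.59 to 4.58) FPM. This order was that of the pool and not of each gene. H1f4 had 25, 53, 47 and 83 fragments and H1f5 had 0, 38, 26 and 44. H1f3, the largest of the 5, had 47, 26, 51 and 109, with a butyrate ratio of 0.527 in WT (0.313 to 0.869). H1f1 had 14, 22, 12 and 26, lowest in LNCKO control. H2B genes gave 35.6, 36.9, 37.6 and 43.7 FPM and H4 genes lay between 11.0 and 14.3, in each case highest in LNCKO butyrate. The H2A and H3 pools held 39.0, 47.0, 38.1 and 41.6 and 5.73, 5.25, 3.28 and 6.06 FPM, and their order depended on H2ac18 and H3c14. Without those genes and the 6 most abundant, H2A gave 3.72, 4.38, 4.27 and 5.13 FPM and H3 gave 2.55, 3.89, 3.07 and 2.79. The H2B genes left gave 8.33 (7.6 to 9.12), 6.01 (5.41 to 6.67), 7.83 and 9.25 FPM. They were thus lower with butyrate in WT, unlike the pool of all H2B genes. The H4 genes left gave 2.93, 3.95, 3.65 and 4.27 FPM.

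**Figure D4:**
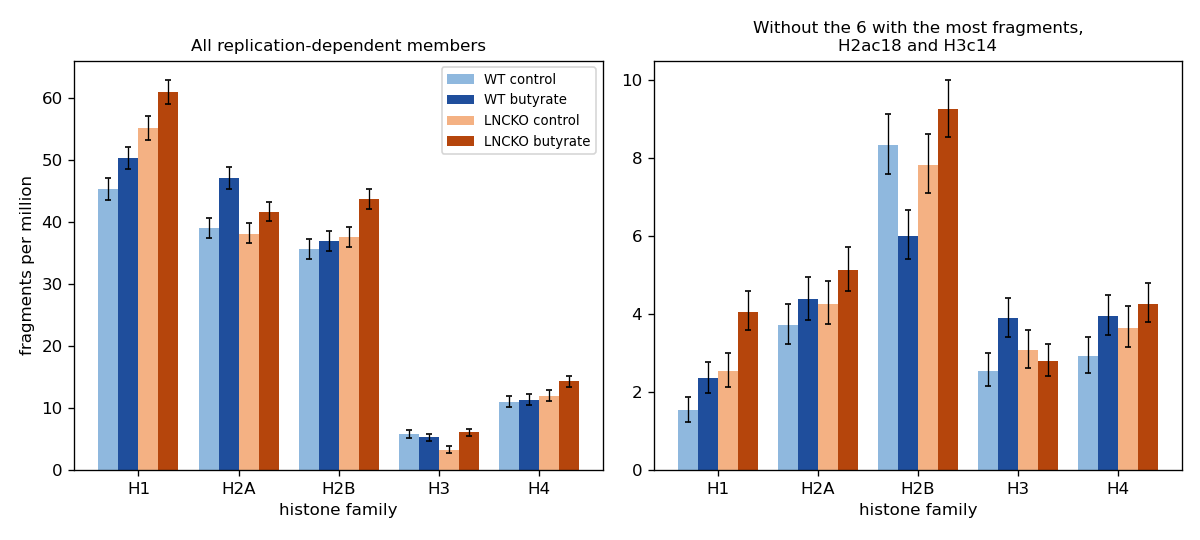
Fragments per 1000000 (FPM) of the replication-dependent genes by family and library, for all 65 genes (left) and without the 6 with the most fragments, H2ac18 and H3c14 (right). Bars are pooled counts and error bars are exact 95% Poisson intervals; the H1 pool is lowest in WT control and highest in LNCKO butyrate in both panels.

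H2ac18 and its neighbour H3c14 had the most uneven values of all members. Both lie on chromosome 3, plus strand, H2ac18 at 96245497 to 96246082 and H3c14 at 96246685 to 96248509. H2ac18, an H2A gene, gave 0, 266, 35 and 0 fragments, and H3c14, an H3 gene, gave 179, 81, 11 and 214. The libraries without any H2ac18 fragment were those with the most H3c14 fragments, and the other two held both. H2ac18 reached a mean FPKM of 1 through its 7.67 FPKM in WT butyrate, so it had to differ between libraries. H3c14, with 1.74, 0.75, 0.113 and 1.79 FPKM, reached it only through WT control and LNCKO butyrate. Counted against the floor of 3 fragments per library, H2ac18 was higher with butyrate in WT by 84.5-fold and lower in LNCKO by 14.3-fold. These are not lower limits. The exact interval used for the other ratios also covers the counting error of the larger count and allows smaller changes. It had a lower limit of 68.2 for the WT ratio and an upper limit of 0.0905 for the LNCKO ratio. The butyrate ratio of H3c14 was 0.431 in WT (0.327 to 0.564) and 15.8 in LNCKO (8.68 to 32.2).

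Both genes overlap others in position or sequence. All 100-base windows of both genes occur in transcripts of other genes, H3c14 sharing its windows with H3c13 and H3c15 among others. Gm20634, a gene on the same strand, covers all 1825 exon bases of H3c14 and 529 of the 586 of H2ac18. H3c15, with 61.6% of its windows shared, gave 45, 29, 39 and 46 fragments and so stayed within a narrower range, and H3c13 had from 0 to 6. The part of overlapping models and of shared sequence in the values of H2ac18 and H3c14 was not tested. Without both genes the replication-dependent class gave 133, 145, 145 and 163 FPM, again lowest in WT control and highest in LNCKO butyrate.

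**Figure D5:**
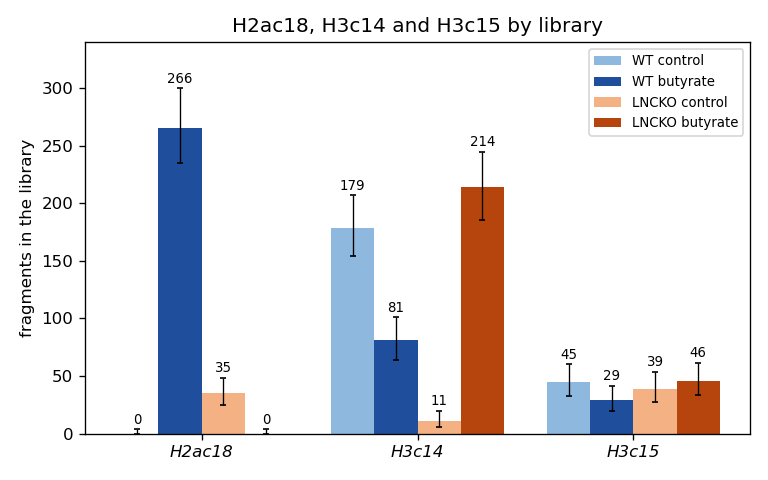
Fragments of H2ac18, H3c14 and H3c15 in each library, with exact 95% Poisson intervals as error bars and the counts above the bars. H2ac18 has 0 fragments in the libraries where H3c14 has 179 and 214, while H3c15 stays between 29 and 46.

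The remaining low genes whose mean FPKM reached 1 rested on few fragments. H2ac11, an H2A gene, gave 8, 41, 51 and 57, so WT control stood apart, and its ratio to that library was 4.88 with butyrate (2.26 to 12.1) and 6.74 in LNCKO control (3.17 to 16.4). H2bc27, an H2B gene on chromosome 11, gave 103, 53, 74 and 98, lowest in WT butyrate, with a butyrate ratio of 0.49 in WT (0.345 to 0.689) and 1.08 in LNCKO (0.789 to 1.48). H2ac8 gave 28, 49, 46 and 89, which is 0.705, 1.18, 1.22 and 1.93 exon FPKM, in the order of the H1 pool. H4c17 gave 25, 17, 26 and 46, H3c3 gave 34, 54, 39 and 29, and H2ac10 gave 43, 41, 26 and 31. The intervals of the butyrate ratio in WT of H4c17 (0.328 to 1.25), H3c3 (0.967 to 2.4) and H2ac10 (0.577 to 1.43) all included 1.

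The 51 replication-dependent genes under a mean FPKM of 1 had from 0 to 121 fragments in a library. Pooled, they gave 14.8 FPM in WT control (13.8 to 15.8), 16.3 in WT butyrate (15.3 to 17.3), 16.5 in LNCKO control (15.4 to 17.6) and 20.2 in LNCKO butyrate (19.1 to 21.3). LNCKO butyrate was the library with the highest value for 24 of them, WT butyrate for 13, WT control for 9 and LNCKO control for 5. The same count over all genes was not made, so no trait of the class can be read from it. As said above, 25 genes of the class had under 20 fragments in every library and many share sequence, so these genes are not independent. H4c4 (11, 49, 32 and 66 fragments) and H4c14 (11, 29, 33 and 47) were lowest in WT control, whereas H2bc9 (40, 7, 51 and 34) was lowest in WT butyrate.

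Members past a fold were next counted on the scale of FPKM + 1, where the added 1 damps the changes of low genes. FPKM is over the whole gene span, introns included, so genes with long introns were filtered and damped more than those of 1 exon block. The shares of all genes given beside the members carry this difference. With butyrate in WT, H2ac11 and H2ac18 were at least 1.5-fold higher, beside 0.808% of all genes tested, and H2bc27 and H3c14 at least 1.5-fold lower, beside 0.441%. At 2-fold, H2ac18 was higher and none was lower, with backgrounds of 0.264% and 0.0734%. With butyrate in LNCKO, H3c14 alone was higher and H2ac18 alone lower, at 1.5-fold (0.294% and 0.132% of all genes) and at 2-fold (0.103% and 0.0734%).

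Between the genotypes without butyrate, H2ac11 and H2ac18 were higher in LNCKO and H3c14 lower, both at 1.5-fold (0.338% and 0.279% of all genes) and at 2-fold (0.191% and 0.0881%). With butyrate, H3c14 and H4c17 were at least 1.5-fold higher in LNCKO (0.764%) and none 2-fold (0.22%), and H2ac18 was lower at both folds (0.734% and 0.25%). Butyrate changes of opposite sign in the genotypes, both past 1.25-fold, were seen in H2ac18, H3c14 and H3c3, 3 of the 21 members compared, beside 0.147% of all genes. H2ac18 and H3c14 passed the filter only through the libraries in which they were high, so this share and the counts that hold them do not measure the class. None of the 7 replacement genes whose mean FPKM reached 1 passed 1.5-fold in any of the 4 comparisons. Of the other two, Macroh2a2 had the WT butyrate ratio of 1.8 given above, and H1f10 had a ratio of 1.58 with butyrate in WT (0.974 to 2.59) and of 1.64 for LNCKO against WT without butyrate (1.01 to 2.71). When values were rescaled to 1000000 per library, so that the added 1 weighs less and 66 members reach a mean of 1, the counts at 1.5-fold were far higher, at 19 higher and 13 lower with butyrate in WT, beside 2.41% and 2.2% of all genes tested. They were 13 and 9 in LNCKO (1.36% and 0.889%), 20 and 14 for LNCKO against WT without butyrate (1.66% and 1.53%) and 14 and 11 with it (2.75% and 2.34%). As given above, 52 of the 65 replication-dependent genes had under 100 fragments in every library and 25 had under 20. A few fragments can carry such a gene past 1.5-fold, so these counts do not measure the class either.

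Position and promoters were also described. Of the 65 replication-dependent genes, 53 lay on chromosome 13 between 21715763 and 23934156, 9 on chromosome 3, 2 on chromosome 11 and 1 on chromosome 6, and 60 had a single exon block. The 9 replacement genes were spread over 8 chromosomes. In 11 cases an H2A gene and an H2B gene start back to back with at most 500 bases between them, from 176 bases (H2ac8 and H2bc8) to 302 (H2ac12 and H2bc12). The members of such a pair often differed in level. H2bc4 had a mean of 15.1 exon FPKM beside 0.201 for H2ac6, H2bc21 had 3.92 beside 0.296 for H2ac20, and H2bc8 had 4.57 beside 1.26 for H2ac8, but H2ac13 had 0.624 beside 0.0987 for H2bc13. The H2B gene was the higher in 6 pairs and the H2A gene in 5.

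RefSeq promoter windows (GRCm38.p6, 250 bases before to 50 after the start) were at hand for 64 of the 74 members and were searched on both strands. CCAAT, the letters bound by NF-Y, stood in all windows of the H1 (6), H2A (15), H2B (14) and H3 (10) genes, in 3 of 11 H4 windows and in 5 of 8 replacement windows, beside 41.1% of 27025 genes. ATTTGCAT, the octamer bound by Oct-1, stood in 7 of 14 H2B windows and 5 of 15 H2A windows, beside 1.97%. Windows of back-to-back pairs overlap, so these are not independent. AAACACA, known as the H1 box, stood in 5 of 6 H1 windows, beside 8.22%, and TATAAA in 8 of 11 H4 windows, beside 15.7%. A match is only a run of letters.

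The 150 bases before the start of H1f2, the most abundant gene of the class, and of H2bc8, whose start faces that of H2ac8, are shown with every match to these 4 motifs in capitals.
H1f2 (chr13:23738657-23738806, plus strand): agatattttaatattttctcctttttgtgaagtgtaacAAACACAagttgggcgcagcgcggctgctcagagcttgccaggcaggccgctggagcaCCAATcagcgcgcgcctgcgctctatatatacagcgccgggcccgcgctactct
H2bc8 (chr13:23571250-23571399, plus strand): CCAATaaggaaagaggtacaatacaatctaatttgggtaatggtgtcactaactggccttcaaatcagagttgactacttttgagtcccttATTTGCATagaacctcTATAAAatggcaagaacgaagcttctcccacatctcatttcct
The H1f2 stretch holds the H1 box and CCAAT, and that of H2bc8 holds CCAAT, the octamer and TATAAA.

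The genes that make, chaperone or modify histones differed little. Of 10 genes for histone mRNA processing whose mean FPKM reached 1, 2 were higher and 8 lower with butyrate in WT (median -0.09) and 3 higher and 7 lower in LNCKO (median -0.04). Slbp, which encodes the stem-loop binding protein, had 5.16, 4.37, 5.21 and 5.37 FPKM, lowest in WT butyrate like the H2A.Z genes. The largest WT changes of this list were those of Mblac1 (0.38), Cpsf2 (-0.33) and Cpsf3 (-0.22). Of 21 histone chaperone genes, 8 were higher and 13 lower in WT (median -0.05) and 6 higher and 15 lower in LNCKO (median -0.03), led by Dek (-0.25), Npm1 (0.24) and Ubn1 (-0.18) in WT. Of 5 histone deacetylase genes, the targets of butyrate, 2 were higher and 3 lower in WT and 4 higher and 1 lower in LNCKO, led by Hdac5 (-0.22), Hdac3 (-0.07) and Hdac2 (0.04) in WT. No gene of these 3 lists passed 1.5-fold in any comparison.

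Genes of DNA synthesis and S phase, the time at which replication-dependent histones are made, were read beside them. Of 24 such genes, 11 were higher and 13 lower with butyrate in WT (median -0.05) and 4 higher and 20 lower in LNCKO (median -0.08), and none passed 1.5-fold. Their summed level was 195, 181, 208 and 195 FPKM. The largest WT changes were those of Ccna2 (-0.40), E2f2 (-0.34) and Ccne2 (-0.32), which encode cyclins and a factor of the G1 to S step. The pool of replication-dependent histones was thus higher with butyrate in both genotypes, while this sum was lower in both.

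Markers of other cells moved with some of these libraries. Macrophage markers summed to 2580, 3510, 2210 and 1490 FPKM, with Lyz2 (1970, 2870, 1610 and 870) the largest share and in the same order. Cd68 had 312, 340, 307 and 330 FPKM, a marker that was high in every library, whereas Lyz2 was lowest in LNCKO butyrate. The neutrophil markers given below summed higher than the macrophage markers in every library but WT butyrate, a comparison that rests largely on Lyz2. The share of each cell type was not measured. Of the 9 macrophage markers whose mean FPKM reached 1, 7 were higher with butyrate in WT, and the largest changes were those of Cd14 (-0.56) and Lyz2 (0.54). All 7 B cell markers whose mean FPKM reached 1 were lower with butyrate in WT (median -0.39), led by Rag1 (-1.70), Vpreb3 (-0.69) and Cd79a (-0.40). The B cell markers had sums of 221, 167, 226 and 227 FPKM, lowest in WT butyrate. This is the library in which H2az1, H2az2, H2ax and H3f3a were lowest, and the part of B cells in those values was not tested. Erythroid markers summed to 6.4, 7.01, 23.1 and 65.0 FPKM, in the order of the H1 pool. The 3 whose mean FPKM reached 1, Hba-a1, Hba-a2 and Hbb-bt, were past 1.5-fold higher with butyrate in LNCKO (median 1.40). They were higher in LNCKO than in WT at both conditions, and their part in the histone values was not tested. Among erythroid markers whose mean FPKM was under 1, Alas2 had 0.00915, 0.0109, 0.0354 and 0.0374 FPKM, higher in LNCKO like the globin genes. Klf1 had 0.0632, 0.0451, 0.0167 and 0, Epor 0.115, 0.117, 0.0772 and 0.0795, and Car2 0.298, 0.211, 0.345 and 0.309. Klf1 and Epor were thus lower in LNCKO, and Car2 was lowest in WT butyrate. Neutrophil markers summed to 2690, 3110, 2350 and 2260 FPKM, led by Elane (0.68), S100a9 (0.49) and Camp (-0.44), and T and NK cell markers to 15.6, 20.1, 20.5 and 17.7, led by Nkg7 (0.53), Gzmb (-0.21) and Cd8a (-0.15). Y-linked genes had 16 to 85 fragments each in the WT libraries and 2051 to 7764 in the LNCKO libraries, so genotype and donor sex cannot be told apart in any LNCKO to WT difference given here.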

How the data were processed

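RNA was sequenced from 4 libraries of mouse bone marrow-derived macrophages, 1 per group, so no test was made. The study's methods give TRIzol extraction and 100-base paired reads from an MGISEQ-2000, whereas the labels name an Illumina protocol. The authors deposited FPKM per gene, and the submitters' processing notes name STAR 2.5.0c, Picard 1.126, bedtools 2.17.0, HTSeq 0.6.0 and DESeq2 3.0 with GRCm38. Their settings are not given in the sources used here.

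Of 16375 genes, 16342 matched GENCODE M21. Multiplying each FPKM by the whole gene span and by a library total recovered whole fragments (within 0.05) for 98.6% of them in all 4 libraries and for all 74 members. Exon FPKM divides these fragments by exon length. Changes are log2 ratios of FPKM + 1 for the 6809 genes whose mean FPKM reached 1. Ratios of FPKM carry exact Clopper-Pearson intervals of 95% from the fragments. A floor of 3 fragments per library was used against 0. The steps were tested on simulated data (Python 3.11.15, pandas 2.3.3, scipy 1.17.1).

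The members, classes and lists were chosen with earlier results of these data known. Values in every library are given for each replacement gene and for the 5 replication-dependent genes with the highest mean FPKM. They are also given for the 3 with the largest and the 3 with the smallest change in each comparison, and for any past 2-fold. H2bc4, H2bc9, H1f1, H1f3, H1f4, H1f5, H4c4, H4c14, H2bc23, H2bc24 and H3c15 were added after their values were seen. Of each list, the 3 genes with the largest WT change are named, except that some marker genes are not reported here, and Slbp, Cd68, Alas2, Klf1, Epor and Car2 were added in the same way. Protein sequences were not used here.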

Additional observations from a re-analysis of the deposited data

Results flagged for a closer look

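In 3 members the butyrate change had opposite signs in the genotypes, with both changes past 1.25-fold on the scale of FPKM + 1, as in 0.147% of the 6809 genes tested. The difference of WT minus LNCKO changes was 4.20 on the log2 scale for H2ac18 (3.12 in WT and -1.08 in LNCKO), -1.97 for H3c14 (-0.65 and 1.33) and 0.67 for H3c3 (0.32 and -0.34). With 1 library per group none of these differences was tested. H2ac18 and H3c14 share all their 100-base windows with other genes and overlap Gm20634, and H3c3 rests on 29 to 54 fragments in a library. H2ac18 and H3c14 also reached a mean FPKM of 1 only through the libraries in which they were high, so the number of members flagged does not measure the class.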

How the results depend on the processing

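All 8 class medians and the excess of the WT over the LNCKO butyrate change of H1f0 moved by less than 0.2 (log2) under each alternative, that excess ranging from 0.13 (rescaled) to 0.20 (median ratio scaling) against 0.16. The WT replacement median ranged from -0.22 with no pseudocount to -0.04 with no filter on low values. Median ratio scaling kept every count of members past 1.5-fold within 1.5 times, but other settings did not. The counts in the report were 2 higher and 2 lower with butyrate in WT, 1 and 1 in LNCKO, 2 and 1 for LNCKO against WT without butyrate, and 2 and 1 with butyrate. Rescaling to 1000000 per library, which raises all values against the added 1, so that 66 members pass, gave 19 and 13, 13 and 9, 20 and 14, and 14 and 11. Requiring a mean FPKM of at least 5 left 9 members and 0 in every count. With no filter, the WT counts were 4 and 4, the higher count in LNCKO was 4, the lower count without butyrate 2 and the higher count with butyrate 4. A pseudocount of 0.1 gave 2 and 2 in LNCKO, 2 lower without butyrate, and 4 higher and 2 lower with butyrate. With no pseudocount, 2 were higher in LNCKO, 2 lower without butyrate and 4 higher with butyrate. Of 332 values of single members under 4 alternatives of pseudocount and scaling, 63 moved by 0.2 or more and 4 changed sign, each at most 0.04 from 0 on both sides. These were the butyrate change of H3f3b in WT (-0.04 to 0.02) and of H2az2 in LNCKO (-0.0093 to 0.0041) and the LNCKO minus WT difference of H2bc4 without butyrate (0.01 to -0.01) under median ratio scaling, and the butyrate change of H3f3a in LNCKO (0.01 to -0.01) when rescaled. Levels per exon length change the order of genes but no ratio of FPKM. The filter and the added 1 were applied to FPKM over the whole gene span, so both depend on that choice. H2az2 had 2.03 FPKM over the span and 21.4 over exons in WT control, and its WT change was -0.20 beside a ratio of 0.806. Macroh2a2 had a mean of 0.0943 FPKM over the span and 1.97 over exons. No paired analysis was possible because each group holds 1 library, and leaving out a library would empty its group.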
